A study of Mus musculus with 18 samples.

Results

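The miR-29 family was described in livers of male Muta™Mouse, a mouse strain that carries a bacterial lacZ transgene for scoring mutations, after repeated oral dosing with benzo(a)pyrene (BaP). The family consists of mmu-miR-29a, mmu-miR-29b and mmu-miR-29c (written without the species prefix from here on), and its members were taken by name from the array's annotation: 3 of the 576 miRNA names on the array, measured by 6 of its 1712 probes. BaP, a polycyclic aromatic hydrocarbon that liver enzymes convert to metabolites that bind DNA, was dissolved in olive oil and given by gavage every day for 28 days. The mice were 25 weeks old and livers were taken 3 days after the last dose. The groups were olive oil alone (3 arrays) and BaP at 25, 50 or 75 mg/kg/day (5 arrays each), with 1 animal per array and other control animals not analysed here. Every group carried the transgene and received olive oil, so no comparison bears on either. The labels name the tissue as a part of the liver and carry no replicate numbers.

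MicroRNAs are short RNAs that pair with messenger RNAs, mostly through bases 2 to 8 at their 5′ end (the seed), and lower the stability or translation of those messengers. The miR-29 family is known for repressing collagens and other genes of the extracellular matrix, and in liver its loss from stellate cells, the cells that lay down scar tissue, accompanies fibrosis. It is also known for targeting the de novo DNA methyltransferases Dnmt3a and Dnmt3b and for acting on Tet enzymes, which oxidise methylated cytosine. Whole liver holds hepatocytes, stellate cells, endothelium and blood together, so fewer cells of a type and less miRNA per cell cannot be told apart in these values.

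The mature sequences are shown because the family is defined by them and because the members differ by so few bases that signal on one member's probe may include RNA of another. They are RefSeq sequences on build GRCm38.p6, written 5′ to 3′ with the seed in capitals.
miR-29a: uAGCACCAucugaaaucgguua
miR-29b: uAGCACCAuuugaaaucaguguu
miR-29c: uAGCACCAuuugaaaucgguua
All 3 members hold the seed AGCACCA, and among 1679 mature mouse miRNA names in the RefSeq table only these 3 hold it. Counted from 1 at the 5′ end, miR-29a and miR-29c differ by 1 base (C10U from miR-29a to miR-29c). Over the 22 positions they share, miR-29b differs from miR-29c at 3 (G18A, U21G and A22U from miR-29c to miR-29b) and from miR-29a at 4, and miR-29b is 1 base longer. Probe sequences were not used here, so how far each probe tells its neighbour apart was not tested.

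The family comes from 4 genes in 2 pairs. Mir29a lies on chromosome 6, minus strand, with its mature sequence at chr6:31062673-31062694, and Mir29b-1 lies beside it on the same strand at chr6:31063025-31063047, the hairpins 275 bases apart. The nearest protein-coding gene to that pair is Klf14. Mir29b-2 (mature sequence at chr1:195037091-195037113) and Mir29c (chr1:195037600-195037621) lie on the plus strand of chromosome 1, their hairpins 426 bases apart, both within the annotated span of the long noncoding RNA gene A330023F24Rik, with Cd46 as the nearest protein-coding gene. The Mir29b-1 and Mir29b-2 genes give the same mature sequence, so the array reports their sum. The hairpins of Mir29b-1 and Mir29b-2 are shown with the mature arm in capitals, since those capitals are alike while the bases outside them differ in part.
Mir29b-1: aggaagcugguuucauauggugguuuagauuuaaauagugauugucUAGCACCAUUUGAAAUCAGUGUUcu
Mir29b-2: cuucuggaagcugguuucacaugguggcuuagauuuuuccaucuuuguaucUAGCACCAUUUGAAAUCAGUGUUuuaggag

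The arrays were 1-colour Agilent mouse miRNA arrays of 11540 non-control spots each, lying on 3 slides. The 7 arrays of slide 1 were 1 control and a pair from every dose, and the 4 of slide 2 were pairs from 50 and 75 mg/kg/day with no control. The 7 of slide 3 were 2 controls, 3 arrays at 25 mg/kg/day and 1 at each higher dose. The scanner's flag put 5.72% to 16.5% of an array's spots well above background and 0 were saturated. Signal was normalised between arrays on the log2 scale without background subtraction, and 69 of the 576 names passed the filter on presence, all 3 miR-29 members among them. The miRNAs of the hepatocyte marker list, miR-122, miR-192, miR-194 and miR-148a, were detected on 18 of 18 arrays.

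No miR-29 member passed the test for a change with BaP at any dose. The fitted change of every member from control was between a log2 value of -0.09 and 0.10, and the 95% confidence limits of the 9 fold changes lay between 0.821 and 1.19. miR-29a and miR-29b lay slightly below control at all doses, and miR-29c lay below it at 25 and above it at 50 and 75 mg/kg/day, in each case within the spread between arrays. Tests were limma comparisons with slide as a block and Benjamini-Hochberg adjustment over the 69 miRNAs, and a miRNA was called at an adjusted P under 0.05. At 75 mg/kg/day 4 of 69 miRNAs (5.8%) were called, at 50 mg/kg/day 2 (2.9%) and at 25 mg/kg/day 0 (0%, with 7 of 69 at an unadjusted P under 0.05); 0 of the 3 miR-29 members were called at any of these doses, with 0 at an unadjusted P under 0.05 in any of the 3 comparisons. Groups without any overlap with control were seen for 4.35%, 11.6% and 13% of the miRNAs from the lowest dose to the highest, and for 0 of the 3 members at any dose. All dose comparisons share the same 3 controls.

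**Figure D1:**
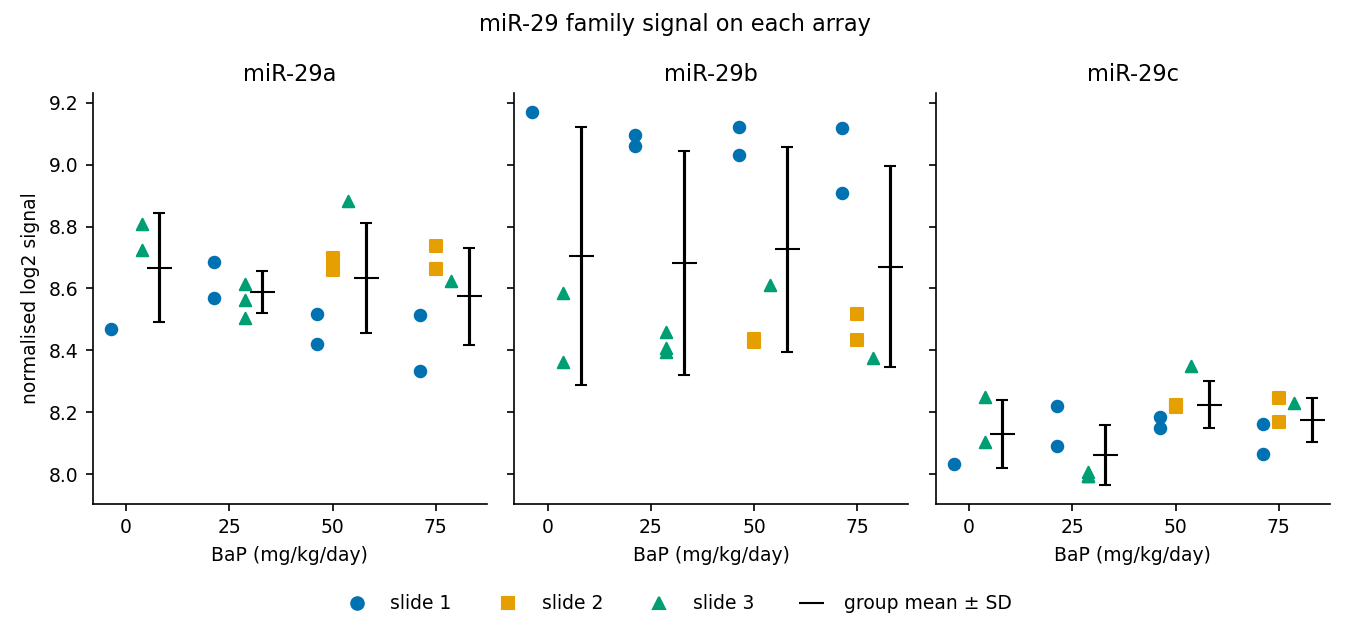
Normalised log2 signal of miR-29a, miR-29b and miR-29c (y axis) on each of the 18 arrays by BaP dose (x axis, mg/kg/day). Each symbol is 1 array, coloured and shaped by slide, and the black bar is the group mean with its SD (n = 3 at dose 0 and n = 5 at the other doses). The dose groups overlap for every member, and for miR-29b the 7 arrays of slide 1 (8.91 to 9.17) sit above the 11 other arrays (8.36 to 8.61).

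miR-29a, the member that shares a gene cluster with miR-29b on chromosome 6, had a normalised log2 signal of 8.47 on the slide 1 control and of 8.81 and 8.72 on the slide 3 controls. At 25 mg/kg/day the arrays gave 8.69 and 8.57 on slide 1 and 8.61, 8.51 and 8.56 on slide 3. At 50 mg/kg/day they gave 8.42 and 8.52 on slide 1, 8.70 and 8.66 on slide 2 and 8.88 on slide 3. These groups overlapped with control, and the control on slide 1 was the lowest of its group. At 75 mg/kg/day the arrays gave 8.33 and 8.51 on slide 1, 8.74 and 8.66 on slide 2 and 8.62 on slide 3, where only the first array lay below all 3 controls. Group means were 8.67 ± 0.18 (SD, n = 3), 8.59 ± 0.07, 8.63 ± 0.18 and 8.57 ± 0.16 (SD, n = 5 each) from control to the highest dose. The log2 change from control was -0.07 ± 0.08 (SE; limma adjusted P = 0.708) at 25, -0.03 ± 0.09 (adjusted P = 0.910) at 50 and -0.09 ± 0.09 (adjusted P = 0.4998) at 75 mg/kg/day. At the highest dose this is 0.937 times control, with a 95% confidence interval of 0.821 to 1.07. Within slides the direction at 25 mg/kg/day was not the same: both arrays of slide 1 lay above their control by 0.16 on average, and the 3 arrays of slide 3 lay below both of theirs by 0.21 on average (differences of mean log2 signal). An exact two-sided permutation test of the plain group means over 56 splits, whose smallest possible P is 0.0179, gave P = 0.375, 0.804 and 0.482 at the 3 doses.

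miR-29b, the product of both gene clusters, gave a log2 signal of 9.17 on the slide 1 control and of 8.58 and 8.36 on the slide 3 controls. At 25 mg/kg/day it gave 9.06 and 9.09 on slide 1 and 8.46, 8.41 and 8.39 on slide 3. At 50 mg/kg/day it gave 9.12 and 9.03 on slide 1, 8.44 and 8.43 on slide 2 and 8.61 on slide 3. Each dose group thus held high arrays, all on slide 1, and low arrays on the other slides, and the groups overlapped. At 75 mg/kg/day it gave 8.91 and 9.12 on slide 1, 8.52 and 8.43 on slide 2 and 8.37 on slide 3. Because of the slides the SDs of the group means were wide: 8.71 ± 0.42 (n = 3), 8.68 ± 0.36, 8.73 ± 0.33 and 8.67 ± 0.33 (n = 5 each) from control to the highest dose. With slide as a block the log2 change from control was -0.06 ± 0.06 (SE; limma adjusted P = 0.635) at 25, -0.02 ± 0.07 (adjusted P = 0.910) at 50 and -0.08 ± 0.07 (adjusted P = 0.4998) at 75 mg/kg/day, which is 0.946 times control (95% confidence interval 0.855 to 1.05). On slide 1 all 6 dosed arrays lay below the single control there, by 0.09, 0.09 and 0.16 on average from the lowest dose to the highest. On slide 3 the array at 50 mg/kg/day lay 0.14 above the mean of its controls, and the means at 25 and 75 mg/kg/day lay 0.05 and 0.10 below it. Exact two-sided permutation P-values of the plain group means were 0.875, 0.875 and 0.857.

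miR-29c, which differs from miR-29a by the single base at position 10, gave a log2 signal of 8.03 on the slide 1 control and of 8.25 and 8.10 on the slide 3 controls. At 25 mg/kg/day it gave 8.22 and 8.09 on slide 1 and 7.99, 7.99 and 8.01 on slide 3, so that 3 arrays lay below every control and 2 did not. At 50 mg/kg/day it gave 8.18 and 8.15 on slide 1, 8.22 and 8.22 on slide 2 and 8.35 on slide 3. Of these the last was the only array above every control, and the groups overlapped. At 75 mg/kg/day it gave 8.06 and 8.16 on slide 1, 8.25 and 8.17 on slide 2 and 8.23 on slide 3, all inside the range of the controls. Group means were 8.13 ± 0.11 (SD, n = 3), 8.06 ± 0.10, 8.22 ± 0.07 and 8.17 ± 0.07 (SD, n = 5 each) from control to the highest dose. The log2 change from control was -0.06 ± 0.06 (SE; limma adjusted P = 0.635) at 25, 0.10 ± 0.07 (adjusted P = 0.466) at 50 and 0.05 ± 0.07 (adjusted P = 0.723) at 75 mg/kg/day. At 50 mg/kg/day this is 1.07 times control (95% confidence interval 0.965 to 1.19). Within slides, miR-29c at 50 mg/kg/day was above every control of its own slide on 3 of 3 arrays, by 0.13 on slide 1 and 0.17 on slide 3, and the exact permutation P within slides was 0.111, the smallest that its 9 arrangements allow. Over all arrays the exact two-sided permutation P-values were 0.429, 0.232 and 0.5 at the 3 doses.

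**Figure D2:**
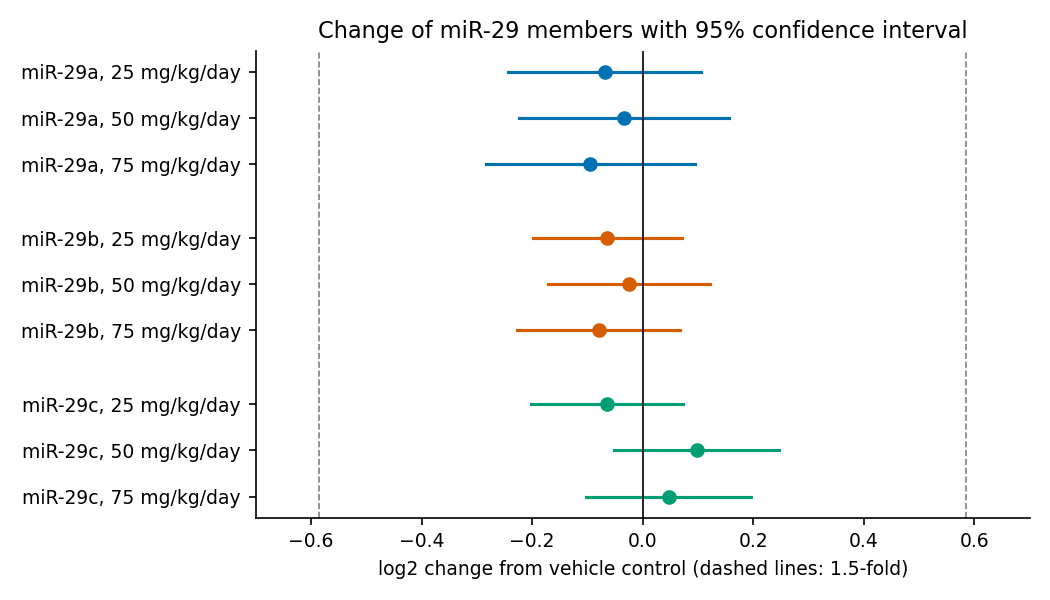
Log2 change from vehicle control (x axis) of each miR-29 member at each BaP dose (y axis), from the limma fit with slide as a block. Points are estimates, lines are 95% confidence intervals and dashed lines mark a 1.5-fold change. Every interval crosses 0 and lies inside the 1.5-fold lines, and the outermost limits correspond to folds of 0.821 and 1.19.

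The same levels were compared between doses. In the fit with slide as a block the order of the groups from highest to lowest was control, 50, 25 and 75 mg/kg/day for miR-29a and miR-29b, and 50, 75, control and 25 for miR-29c. The plain means of miR-29b, which do not allow for the unequal split of the groups over the slides, put 50 mg/kg/day above control. No neighbours in any of these orders differed beyond their spread in the tests run. The difference with the smallest P was that of miR-29c between 50 and 25 mg/kg/day, 0.16 ± 0.06 (log2, SE; unadjusted P = 0.0184, limma adjusted P = 0.212), where 1 of 69 miRNAs (1.45%) was called. From 25 to 75 mg/kg/day miR-29c differed by 0.11 ± 0.06 (adjusted P = 0.423; 2 of 69 miRNAs, 2.9%, called). Both differences passed the threshold once the first array at 25 mg/kg/day was left out (0.23, adjusted P = 0.0486, and 0.18, adjusted P = 0.0464), an array on which 16.5% of spots were well above background, the highest percentage of the 18. On slide 1, which holds that array, miR-29c at 50 mg/kg/day was 0.01 above 25 mg/kg/day, and on slide 3 the gap was 0.35. The slide 3 gap rests on 1 array at 50 mg/kg/day, with 9.93% of spots well above background, and 3 arrays at 25 mg/kg/day. Those 3 arrays had 5.72%, 7.21% and 9.71% of spots well above background, and 5.72% and 7.21% were the lowest percentages of the 18. The part of array brightness in this difference was not tested. The slope per 25 mg/kg/day was -0.03 ± 0.03 for miR-29a, -0.02 ± 0.02 for miR-29b and 0.03 ± 0.02 for miR-29c (log2, SE; limma adjusted P = 0.532, 0.531 and 0.472), while 7 of 69 miRNAs (10.1%) had a called trend. A limma F test of any difference between the doses and control gave adjusted P-values of 0.829, 0.766 and 0.388 in the order a, b, c, with 2 of 69 miRNAs (2.9%) called. Between 75 and 50 mg/kg/day 1 of 69 miRNAs (1.45%) was called and 0 of the 3 members, whose limma unadjusted P-values were 0.405, 0.329 and 0.375.

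**Figure D3:**
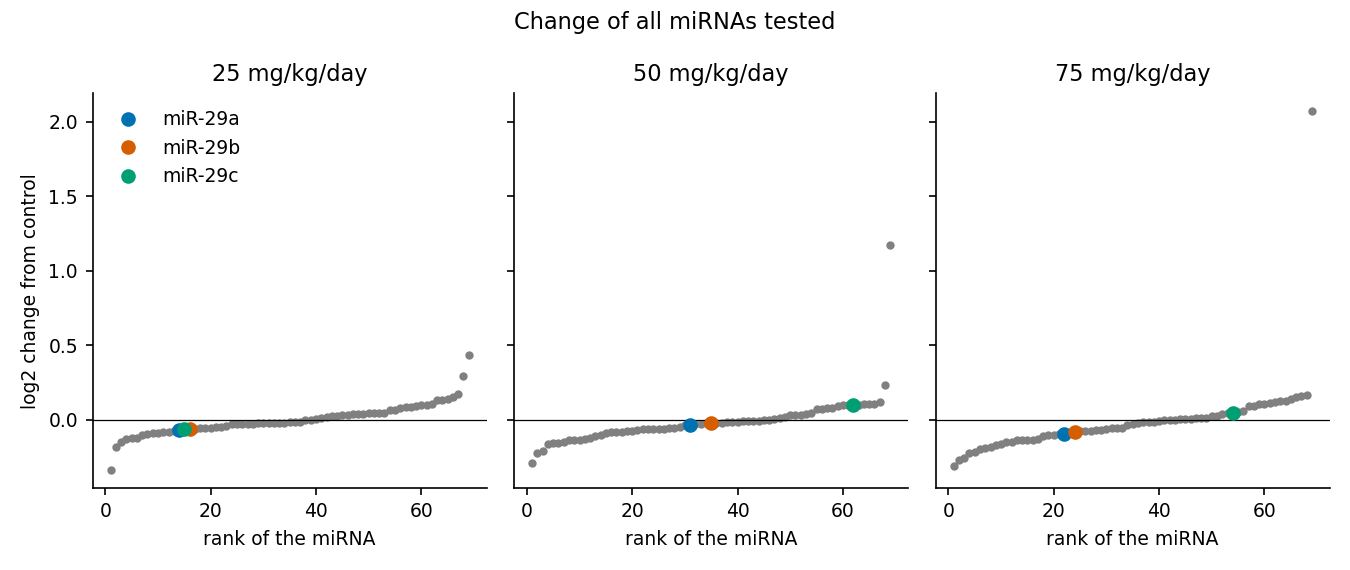
Log2 change from control (y axis) of all 69 miRNAs tested, sorted from lowest to highest (x axis, rank), at 25, 50 and 75 mg/kg/day, with the 3 miR-29 members coloured. The members sit inside the dense band of miRNAs near 0, and the isolated point at 50 and 75 mg/kg/day is miR-34a, at 1.17 and 2.07.

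Scaling moved the sign of these small changes but seldom a call. With the scanner software's total gene signal (a value with background taken off) miR-29c was 0.32 ± 0.10 above control at 75 mg/kg/day (log2, SE; limma adjusted P = 0.0470). That scale set the median of all miRNAs at 0.18, leaving miR-29c 0.14 above the median. On it miR-29c was also called from 25 to 75 mg/kg/day (0.33, adjusted P = 0.0450), and so were the slopes of miR-29b (0.07 per 25 mg/kg/day, adjusted P = 0.0307) and of miR-29c (0.12, adjusted P = 0.0195), where the slope of the median miRNA was 0.07. More miRNAs of all kinds were called on that scale: 9 at 75 mg/kg/day and 13 in the trend, against 4 and 7 in the fit above. With array medians centred, the median of all miRNAs at 75 mg/kg/day was -0.25 and the members lay at -0.47, -0.47 and -0.30, none of them called. Over 32 settings in all, miR-29a and miR-29b were called in 0 comparisons with control by limma, and miR-29c in 1.

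By probe, the array held 2 designs for each member, printed in 10 spots each. The miR-29a probe A_54_P2488 had a signal before normalisation of 100 to 324 over the 18 arrays and A_54_P2489 of 312.5 to 1570. At 75 mg/kg/day they changed by -0.12 ± 0.08 and -0.07 ± 0.11 from control (log2, SE; limma adjusted P over all present probes of 0.354 and 0.741). At 50 mg/kg/day they took opposite signs, -0.09 ± 0.08 and 0.02 ± 0.11, a disagreement inside the errors. The miR-29c probes A_54_P2492 and A_54_P2493 changed by 0.07 ± 0.06 and 0.12 ± 0.08 at 50 mg/kg/day (adjusted P = 0.551 and 0.442) and by 0.04 ± 0.06 and 0.06 ± 0.08 at 75 mg/kg/day, the same sign in both. For miR-29b the values above rest on A_54_P1012 alone, present on 18 of 18 arrays. The other miR-29b probe, A_54_P1011, had a signal of 56 to 74 and was well above background on 6 of the 7 slide 1 arrays and on 0 of the 11 arrays of the other slides, so it was left out of the fit.

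**Figure D4:**
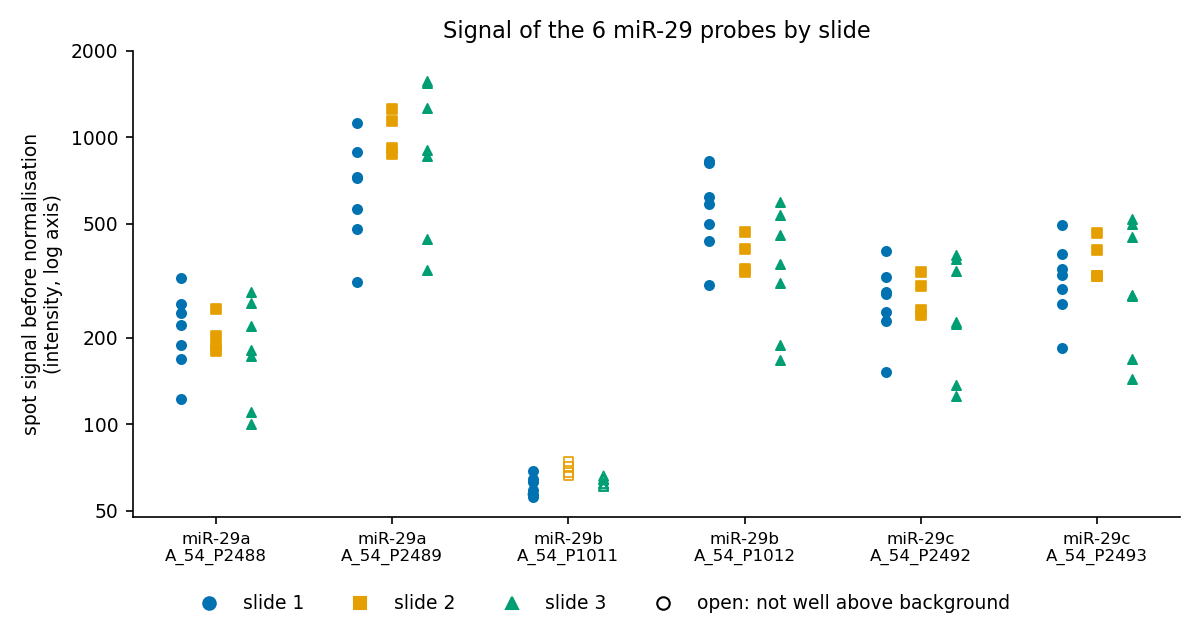
Signal before normalisation (y axis, intensity on a log axis) of the 6 miR-29 probes (x axis) on each of the 18 arrays, by slide. Filled symbols are arrays on which the probe was well above background and open symbols arrays on which it was not. Probe A_54_P1011 of miR-29b stays between 56 and 74 and is filled on 6 arrays of slide 1 only, and the other 5 probes are filled on every array.

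The opposite strands of the hairpins, named with a star and usually degraded, gave almost no signal. miR-29a* and miR-29b* were well above background on 0 of 18 arrays on all of their probes, with signals of 38 to 75. For miR-29c*, 1 of its 2 probes (A_54_P3467) was present on 1 array, the first at 25 mg/kg/day, and the other on none. No star strand passed the filter, so no change with dose was tested.

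Slide moved miR-29b far more than BaP did. Log2 signal of miR-29b was 0.62 ± 0.05 lower on slide 3 than on slide 1 (SE; limma adjusted P = 2.02e-08) and 0.61 ± 0.06 lower on slide 2 than on slide 1 (adjusted P = 3.75e-07). Slides 2 and 3 differed by -0.01 ± 0.06 (log2, slide 3 minus slide 2; adjusted P = 0.981), where 0 of 69 miRNAs were called by limma and 5 had an unadjusted P under 0.05. miR-29a went the other way, 0.16 ± 0.06 higher on slide 3 (adjusted P = 0.0287) and 0.20 ± 0.08 higher on slide 2 (adjusted P = 0.0378) than on slide 1. miR-29c differed by 0.03 ± 0.05 and 0.03 ± 0.06 (adjusted P = 0.587 and 0.644). Such slide differences were common, with 47 of 69 miRNAs (68.1%) called between slides 3 and 1 and 37 (53.6%) between slides 2 and 1, and miR-29b ranked number 4 of 69 by size in the first. Slide accounted for 93.6% of the variance of miR-29b over the arrays, 41.7% of that of miR-29a and 12.1% of that of miR-29c, against a median of 54.9% over the 69 miRNAs. Dose, after slide, accounted for 0.908%, 5.92% and 31.2%, against a median of 7.69%, and miR-29c ranked number 7 of 69 in this share. The scan dates of the arrays give the same 3 sets as the slides, and what differed between the slides was not tested.

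Whether the members changed unequally was asked with differences within arrays, which cancel what both members share. The log2 signal of miR-29a minus that of miR-29c was 0.44, 0.56 and 0.62 for the control arrays and 0.47, 0.48, 0.62, 0.51 and 0.55 at 25 mg/kg/day. The arrays at 50 mg/kg/day gave 0.23, 0.37, 0.47, 0.44 and 0.54, and those at 75 mg/kg/day gave 0.27, 0.35, 0.49, 0.49 and 0.39. The arrays of both higher doses therefore reached lower than any control, but each group also overlapped with the controls. Group means of this difference were 0.54 ± 0.09 (SD, n = 3), 0.53 ± 0.06, 0.41 ± 0.12 and 0.40 ± 0.10 (SD, n = 5 each) from control to the highest dose. Exact two-sided permutation P-values against control were 0.821, 0.161 and 0.0893, or 0.821, 0.723 and 0.723 after Benjamini-Hochberg adjustment over the 9 tests of member pairs. On the slides with a control, 3 of 3 arrays at 50 and 3 of 3 at 75 mg/kg/day lay below every control of their slide, by 0.14 and 0.06 at 50 and 0.13 and 0.20 at 75 mg/kg/day on slides 1 and 3. At 25 mg/kg/day both slide 1 arrays lay above their control and 2 of 3 slide 3 arrays lay below theirs. The difference adjusted for slide was -0.13 ± 0.04 at 50 and -0.14 ± 0.04 at 75 mg/kg/day (log2, SE), and in 100000 shuffles of the arrays within slides, a test chosen after the values were seen, its permutation P-values were 0.0168 and 0.0114. After adjustment over the 9 tests of member pairs both were 0.0758, so neither passed, although both did without the fifth array at 50 mg/kg/day (-0.18 and -0.16, adjusted P = 0.0213 by permutation). The same slide-adjusted differences were -0.02 and -0.04 in the authors' deposited values (permutation P = 0.690 and 0.438). With quantile normalisation the unadjusted exact P at 75 mg/kg/day was 0.0357 for the plain means and the permutation P of the slide-adjusted difference was 0.0769. The other pairs, which carry the slide shift of miR-29b, gave exact unadjusted P-values between 0.696 and 0.821. Adjusted for slide, miR-29b minus miR-29c was -0.12 ± 0.07 at 50 and -0.13 ± 0.07 at 75 mg/kg/day (log2, SE). Its permutation P-values were 0.136 and 0.124, or 0.307 for both after adjustment. Over 11 other settings this pair passed the threshold before adjustment in 2 at each of these doses, and after adjustment in 0. The slide-adjusted miR-29a minus miR-29b was -0.01 at both doses (permutation P = 0.917 and 0.870).

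**Figure D5:**
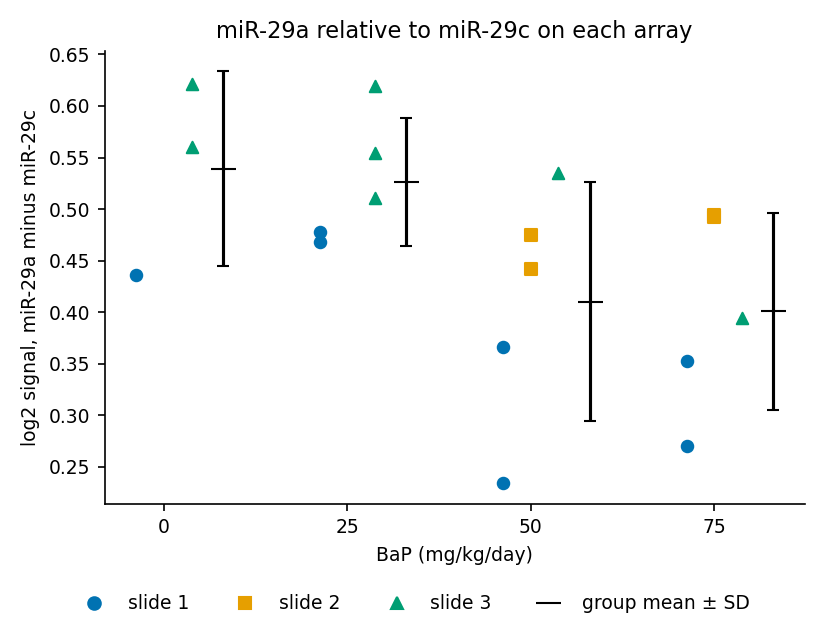
Log2 signal of miR-29a minus that of miR-29c (y axis) on each of the 18 arrays by BaP dose (x axis, mg/kg/day). Each symbol is 1 array, shaped by slide, and the black bar is the group mean with its SD (n = 3 at dose 0, n = 5 at the other doses). Means fall from 0.54 in controls to 0.41 and 0.40 at the higher doses, the groups overlap, and within slides 1 and 3 the arrays at 50 and 75 mg/kg/day lie below the controls of their slide.

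The members also varied together over the arrays. After slide means were removed, miR-29a and miR-29c correlated at r = 0.74, miR-29a and miR-29b at 0.61 and miR-29b and miR-29c at 0.48 (Pearson, n = 18 arrays), while with slides left in the same pairs gave 0.64, -0.51 and -0.04. miR-29c was the miRNA most like miR-29a among the 68 others tested, followed by miR-103 (0.67) and miR-26a (0.66), and miR-29a was in turn the most like miR-29c, followed by miR-106b (0.70) and miR-107 (0.65). The most like miR-29b were miR-101a (0.62), miR-15a (0.61) and miR-29a (0.61). Of the 6 miRNAs outside the family, 0 hold the miR-29 seed. All values of an array share its labelling, hybridisation and overall brightness. Before normalisation the signal of the members varied 4.28-fold (miR-29a), 4.93-fold (miR-29b) and 3.38-fold (miR-29c) between the dimmest and brightest array, and it correlated with the percentage of spots well above background at r = 0.87, 0.84 and 0.85 (slide means removed, n = 18). After normalisation the spreads were 1.46-, 1.75- and 1.28-fold and those correlations were 0.75, 0.22 and 0.46. The part of array brightness in the likeness between members was not tested.

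Other miRNAs tied to the themes that the family is known for, fibrosis and methyltransferases, were read from lists. They need not share the targets of miR-29. Of 36 miRNAs tied to liver fibrosis, 35 were on the array and 13 passed the filter. At 75 mg/kg/day 1 of these 13 rose and 1 fell, against 4 of 69 over all miRNAs, and the median change was 0.02, against -0.03 over all. The one that rose was miR-34a, a target of the p53 tumour suppressor, by 1.17 ± 0.18 at 50 (log2, SE; limma adjusted P = 0.000714) and 2.07 ± 0.18 at 75 mg/kg/day (adjusted P = 5.4e-07), values of a signal that includes its background and was detected on 16 of 18 arrays. miR-199a-3p, an miRNA of mesenchymal cells whose mature sequence is also made by the miR-199b gene, fell by 0.22 on the log2 scale at 75 mg/kg/day (SE 0.05; adjusted P = 0.00931). miR-15b, a regulator of the cell cycle and of the apoptosis inhibitor Bcl2, had a called slope of 0.06 ± 0.02 per 25 mg/kg/day (adjusted P = 0.0166). In the trend 3 of the 13 were called, against 10.1% over all, and at 25 mg/kg/day 0 were called by limma.

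Of 17 miRNAs tied to DNA or histone methyltransferases, 8 passed the filter, among them miR-148a, which targets the maintenance methyltransferase Dnmt1, and the miR-101 and miR-26 families, which target the histone methyltransferase Ezh2. At each of the 3 doses 0 of these 8 were called by limma, against 0%, 2.9% and 5.8% over all 69 miRNAs. From the lowest dose to the highest their median change was -0.02, -0.08 and -0.09, against -0.02, -0.02 and -0.03 over all 69 miRNAs. Only miR-26b, 1 of the 8 against 7 of 69 (10.1%) over all, had a called trend, a slope of -0.10 ± 0.03 per 25 mg/kg/day (log2, SE; limma adjusted P = 0.0466), with changes from control of -0.13, -0.29 and -0.31.

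Markers of the cells that whole liver holds were read beside the members. Of the stellate and mesenchymal list 8 were on the array, 2 passed the filter, and the defining markers miR-214, miR-143 and miR-145 were detected on 0 of 18 arrays. The summed log2 level of that list ranged from 7.47 to 7.58 in controls, from 7.39 to 7.59 at 25, from 7.32 to 7.40 at 50 and from 7.26 to 7.44 at 75 mg/kg/day, and at 50 and 75 mg/kg/day every array lay below every control. Groups without overlap were seen for 11.6% and 13% of the 69 single miRNAs at these doses, with 5 and 6 miRNAs below control. The summed levels were not adjusted for slide and are of signal that includes its background, and miR-125b-5p was detected on 14 of 18 arrays. Of the 2 tested markers, miR-199a-3p was called lower at 75 mg/kg/day (limma adjusted P = 0.00931) and in the trend (adjusted P = 0.00384), and miR-125b-5p was called in neither nor at the other doses. The hepatocyte list (4 of 4 tested) ranged from 13.59 to 13.61 in controls and from 13.43 to 13.92 over all dosed arrays, with 0 of 4 called by limma at any dose. That level sums linear signal, so the brightest members weigh most, and the members did not move alike. miR-148a changed by -0.15, -0.22 and -0.22 from the lowest dose to the highest (log2; limma adjusted P = 0.432, 0.0880 and 0.0669). At 75 mg/kg/day miR-122, miR-192 and miR-194 changed by 0.11, 0.01 and 0.02. Of 9 blood and immune miRNAs 3 were tested, of 2 endothelial ones 1, and of 6 biliary and other epithelial ones 0, and 0 of these were called by limma at any dose. The part of the cell mix in the miR-29 values was not tested.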

How the data were processed

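Livers of 18 mice were profiled on 1-colour Agilent mouse miRNA arrays, 1 array per animal. The authors labelled RNA enriched in small species with cyanine 3 and extracted the scans with Agilent Feature Extraction 10.7.3.1, as their headers state. The scanner files that they deposited give each spot an intensity (linear, before any normalisation). A further deposited table gives every miRNA 1 value on each array. Its values correlated with the log2 median signal of the same arrays at 0.991 or higher over 574 names, with column medians of 5.74 to 5.76, so the table was taken to hold log2 signal that the authors had normalised between arrays without background subtraction. Their centring is unknown, and they were used as an alternative only.

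Following the study's methods, the median signal without background subtraction was normalised on the log2 scale by cyclic loess over non-control spots, replicate spots were reduced to their median and slide was a block. Spots marked as outliers (1.91% to 3.84% of an array) were removed and the mean over present probes was taken per name. Presence of a probe on an array needed 0.5 or more of its spots flagged well above background. Probes present on 4 of 5 arrays of any dose, or on 3 of 3 controls, were kept, which left 112 probes of 69 names. Names of 2 probes outside the family differed between files, and those of the first array were used.

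Groups were taken from the exposure labels. No 2 arrays held identical values. Models were fitted with limma 3.58.1 in R 4.3.3 (lmFit, eBayes) over all 18 arrays, which share 1 estimate of the spread, with two-sided P-values adjusted by Benjamini-Hochberg. The study's methods used MAANOVA, in place of which limma was used. The script was tested on simulated data. Single members were also compared by exact permutation tests. The miRNAs named were the 3 members and their star strands, list members past an adjusted P of 0.05 in a dose comparison or the trend, and the 3 miRNAs with the highest correlation with each member. Cell type markers and examples of a list's known targets were named from the lists, outside that rule. The members and lists were chosen with earlier results of these data known. Mature and hairpin sequences were taken from RefSeq (GRCm38.p6), where 3 of 3 members matched. The alternatives tried were quantile normalisation, centred medians, the processed signal, the total gene signal, normexp background correction with an offset of 50, the deposited values, other filters, other treatments of slide and leaving out each array. A slide-blocked permutation test of the differences between members was added after the values were seen.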

Additional observations from a re-analysis of the deposited data

How the results depend on the processing

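No paired analysis was possible because the labels carry no replicate numbers and each array is a different animal. The precision is limited by the 3 controls, by a slide without any, and by signal without background subtraction, which makes the changes of dim probes smaller than those of the RNA. In data simulated on these arrays at 75 mg/kg/day, the fit over 69 miRNAs found 76.6% of 1.2-fold and 96% of 1.5-fold changes. These rates are averages over miRNAs picked at random. More miRNAs were changed in the simulation than were called here, and noise was drawn independently for each miRNA and array. The rate for a miR-29 member was not tested. Of 32 settings, 18 leave out 1 array. In these settings miR-29a and miR-29b passed the limma threshold in 0 comparisons with control, and miR-29c passed it in 1 (total gene signal at 75 mg/kg/day, 0.32, adjusted P = 0.0470). The total gene signal also called miR-29c from 25 to 75 mg/kg/day (0.33, adjusted P = 0.0450) and the trends of miR-29b (0.07, adjusted P = 0.0307) and miR-29c (0.12, adjusted P = 0.0195). Without the first array at 25 mg/kg/day, miR-29c passed from 25 to 50 (0.23, adjusted P = 0.0486) and from 25 to 75 mg/kg/day (0.18, adjusted P = 0.0464). The unadjusted exact permutation test of plain group means passed 0.05 for miR-29c at 50 mg/kg/day with the processed signal (P = 0.0357), the total gene signal (P = 0.0179) and without the second control (P = 0.0476), for miR-29c at 75 mg/kg/day with the processed and total gene signals (P = 0.0179 in both) and for miR-29a at 25 mg/kg/day without the first control (P = 0.0476). For miR-29a minus miR-29c at 75 mg/kg/day the exact permutation test passed with quantile normalisation (unadjusted P = 0.0357). The slide-blocked permutation test of that difference, added after the values were seen, passed 0.05 before adjustment at 50 (-0.13) and 75 mg/kg/day (-0.14) and missed it after (adjusted P = 0.0758 for both). Its adjusted P ranged from 0.0539 to 0.970 over 11 other settings. Leaving out each array it ranged from 0.0213 to 0.238 at 50 and from 0.0213 to 0.312 at 75 mg/kg/day, and without the fifth array at 50 mg/kg/day it passed at both doses (-0.18 and -0.16, adjusted P = 0.0213). Members kept their direction and their side of the threshold when outlier spots were kept, with the median over probes, with slide as a random block, with normexp background correction and with only probes present on all arrays. Other values that turned sign, passed the threshold or moved a count by over 1.5 times follow, with 25, 50 and 75 for each dose in mg/kg/day against control, and the cause was not tested. With array medians centred, the fitted log2 change was -0.28 at 50, -0.30 at 75 and -0.051 in the trend for miR-29c, 0.071 from 25 to 75 for miR-29a and 0.091 from 25 to 75 for miR-29b. Plain median-centred group means differed by -0.31 at 50 for miR-29b and -0.19 at 50 and -0.20 at 75 for miR-29c. Members with median-centred values differed by -0.013 at 25 for miR-29b minus miR-29c. The median-centred count of called miRNAs was 1 at 50, 1 at 75, 1 from 25 to 75, 1 in the trend and 1 in the any-dose test. With the authors' deposited values, the fitted log2 change was -0.038 at 50, -0.12 at 75 and -0.0048 in the trend for miR-29c, 0.093 from 25 to 75 for miR-29a and 0.0034 from 25 to 75 for miR-29b. Plain deposited group means differed by -0.11 at 50 for miR-29b and -0.12 at 50 and -0.20 at 75 for miR-29c. Members with deposited values differed by 0.053 at 25 for miR-29a minus miR-29c and 0.014 at 50 and 0.011 at 75 for miR-29b minus miR-29c. The deposited count of called miRNAs was 7 at 25, 1 from 25 to 75 and 3 in the trend. With no presence filter, the fitted log2 change was -0.037 from 25 to 50 for miR-29b. Plain unfiltered group means differed by -0.038 at 50 for miR-29b. Members with unfiltered values differed by 0.0061 at 50 for miR-29a minus miR-29b. The unfiltered count of called miRNAs was 1 at 50, 9 at 75, 0 from 25 to 50, 1 from 25 to 75 and 1 in the any-dose test. With no slide block, the fitted log2 change was 0.020 at 50 for miR-29b. The unblocked count of called miRNAs was 1 at 50, 1 at 75, 0 from 25 to 50, 1 from 25 to 75, 2 in the trend and 1 in the any-dose test. With normexp background correction, the number of miRNAs called was 1 at 50. On the slides that held controls alone, the fitted log2 change was 0.0085 at 50 for miR-29b. Plain control-slide group means differed by 0.094 at 75 for miR-29b. Members with control-slide values differed by 0.12 at 50 and 0.070 at 75 for miR-29b minus miR-29c. The control-slide count of called miRNAs was 1 at 50, 0 from 25 to 50, 1 from 25 to 75 and 1 in the any-dose test. With only the groups compared in the fit, the fitted log2 change was 0.057 at 50 for miR-29a and 0.022 at 50 for miR-29b. The separate-fit count of called miRNAs was 1 at 50, 2 at 75, 0 from 25 to 50 and 1 from 25 to 75. With only probes present on all arrays, the number of miRNAs called was 0 at 50, 0 from 25 to 50, 0 from 25 to 75, 0 from 50 to 75 and 0 in the any-dose test. With the scanner software's processed signal, the fitted log2 change was 0.013 at 25, 0.10 at 50, 0.061 at 75, 0.049 from 25 to 75 and 0.023 in the trend for miR-29b, 0.0063 at 25 for miR-29c and 0.062 at 50, 0.0080 at 75, 0.023 from 25 to 75 and 0.0064 in the trend for miR-29a. Plain processed-signal group means differed by 0.12 at 50 and 0.071 at 75 for miR-29a, 0.066 at 25 and 0.15 at 75 for miR-29b and 0.014 at 25, 0.28 at 50 and 0.27 at 75 for miR-29c. The processed-signal count of called miRNAs was 0 at 50, 0 from 25 to 50, 1 from 25 to 75, 3 in the trend and 1 in the any-dose test. With quantile normalisation, the fitted log2 change was 0.024 at 25, 0.032 at 75, -0.052 from 25 to 50, 0.0074 from 25 to 75, 0.059 from 50 to 75 and 0.0076 in the trend for miR-29b, 0.018 from 25 to 75 for miR-29a and 0.0068 from 50 to 75 for miR-29c. Plain quantile group means differed by 0.063 at 25 and 0.079 at 75 for miR-29b. Members with quantile values differed by -0.14 at 75 for miR-29a minus miR-29c and 0.023 at 75 for miR-29b minus miR-29c. The quantile count of called miRNAs was 1 at 50, 1 from 25 to 75, 3 in the trend and 1 in the any-dose test. With slide as a random block, the number of miRNAs called was 1 at 50, 1 from 25 to 75 and 1 in the any-dose test. With the scanner software's total gene signal, the fitted log2 change was 0.020 at 25, 0.14 at 50, 0.17 at 75, 0.15 from 25 to 75, 0.032 from 50 to 75 and 0.063 in the trend for miR-29a, 0.043 at 25, 0.16 at 50, 0.20 at 75, 0.16 from 25 to 75, 0.040 from 50 to 75 and 0.071 in the trend for miR-29b and 0.32 at 75, 0.33 from 25 to 75, 0.053 from 50 to 75 and 0.12 in the trend for miR-29c. Plain total-signal group means differed by 0.19 at 50 and 0.22 at 75 for miR-29a, 0.10 at 25 and 0.31 at 75 for miR-29b and 0.34 at 50 and 0.39 at 75 for miR-29c. The total-signal count of called miRNAs was 4 at 50, 9 at 75, 0 from 50 to 75 and 13 in the trend. Leaving out each array in turn, the fitted log2 change ranged over -0.14 to 0.0071 at 50, -0.070 to 0.11 from 25 to 50, -0.065 to 0.047 from 25 to 75 and -0.091 to 0.0049 from 50 to 75 for miR-29a, -0.10 to 0.016 at 50, -0.035 to 0.062 from 25 to 50 and -0.044 to 0.030 from 25 to 75 for miR-29b and -0.0092 to 0.099 at 75, 0.10 to 0.23 from 25 to 50 and 0.088 to 0.18 from 25 to 75 for miR-29c. The plain difference of group means ranged over -0.18 to -0.0092 at 25 and -0.13 to 0.038 at 50 for miR-29a, -0.19 to 0.21 at 25, -0.15 to 0.25 at 50 and -0.21 to 0.20 at 75 for miR-29b and 0.049 to 0.16 at 50 and -0.0021 to 0.11 at 75 for miR-29c. The difference between members ranged over -0.39 to 0.14 at 25, -0.38 to 0.15 at 50 and -0.39 to 0.14 at 75 for miR-29a minus miR-29b, -0.065 to 0.028 at 25 for miR-29a minus miR-29c and -0.11 to 0.32 at 25, -0.24 to 0.20 at 50 and -0.24 to 0.20 at 75 for miR-29b minus miR-29c. The number of miRNAs called ranged over 0 to 1 at 25, 1 to 4 at 50, 1 to 9 at 75, 0 to 1 from 25 to 50, 1 to 7 from 25 to 75, 4 to 11 in the trend and 1 to 3 in the any-dose test. Where 0 miRNAs were called by limma under a setting, between 0 and 59 had an unadjusted P under 0.05. With only probes present on all arrays, 42 of the 69 names were tested, miR-34a not among them.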
